A study of Mus musculus with 66 samples.

Results

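The data described here are the mRNA levels of 10 genes of the endoplasmic reticulum (ER) stress response in the mouse nucleus accumbens (NAcc): the chaperones and folding enzymes Hspa5, Hsp90b1, Pdia4, Pdia6 and Calr, the smaller ER proteins Sdf2l1, Creld2 and Manf, and the transcription factors Xbp1 and Atf4. The 10 genes were taken by symbol from a table of 24138 genes. For 9 of them the symbol in the table equals the gene name, and Pdia4 is listed in a row joined with the microRNA gene Mir704, so that its value covers both. Each gene was followed in all 66 libraries of the series, which asked how a single dose of cocaine alters the daily cycle of transcripts in the NAcc with and without the dopamine D2 receptor (D2R) in indirect pathway medium spiny neurons (iMSNs).

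The libraries were made from punches of ventral striatum of C57BL/6 mice, either wild type (WT) or iMSN-D2RKO. The iMSN-D2RKO mice carried D2R flox/flox alleles and a Cre recombinase driven by the D1R promoter, which is active in the embryonic precursors of these neurons. Mice kept in 12 h of light and 12 h of darkness received an intraperitoneal injection of cocaine (20 mg/kg) or saline at zeitgeber time (ZT) 3, and tissue was taken at ZT3, ZT7, ZT11, ZT15, ZT19 and ZT23. ZT3, ZT7 and ZT11 are called light and ZT15, ZT19 and ZT23 dark. The ZT3 group of each genotype serves both treatment series, which leaves 22 groups of 3 libraries, and any comparison of the saline with the cocaine series therefore leaves ZT3 out or shares it.

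The ER folds proteins that enter the secretory pathway. When unfolded proteins accumulate there, Hspa5 (BiP) is drawn away from the sensors IRE1, PERK and ATF6, and these start the unfolded protein response. IRE1 splices the mRNA of Xbp1 into a form that encodes an active transcription factor, ATF6 is cut to release another, and PERK slows translation while favouring that of Atf4. Together they raise the transcripts of ER chaperones, disulfide isomerases and degradation factors. These genes are also expressed without added stress, in neurons as in other cells. A value per gene does not separate spliced from unspliced Xbp1 mRNA, and it says nothing of the translation of Atf4.

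The promoters of the 10 genes are shown as sequence for the disulfide isomerase Pdia6 and for Xbp1, which had the most and the fewest CpG dinucleotides of the members. Windows of 250 bases before the annotated start were taken from RefSeq (GRCm38.p6), in which 9 of the 10 genes matched a window. The Pdia6 window is chr12:17266339-17266588 (plus strand) and the Xbp1 window chr11:5520391-5520640 (plus strand), in mm10 and written 5′ to 3′ along the gene, with CpG dinucleotides in capitals:
Pdia6: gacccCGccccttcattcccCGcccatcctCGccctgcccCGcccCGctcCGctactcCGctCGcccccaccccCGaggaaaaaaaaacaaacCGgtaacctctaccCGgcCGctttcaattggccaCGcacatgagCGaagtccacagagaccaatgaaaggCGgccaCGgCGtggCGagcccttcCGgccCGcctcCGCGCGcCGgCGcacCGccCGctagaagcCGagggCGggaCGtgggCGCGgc
Xbp1: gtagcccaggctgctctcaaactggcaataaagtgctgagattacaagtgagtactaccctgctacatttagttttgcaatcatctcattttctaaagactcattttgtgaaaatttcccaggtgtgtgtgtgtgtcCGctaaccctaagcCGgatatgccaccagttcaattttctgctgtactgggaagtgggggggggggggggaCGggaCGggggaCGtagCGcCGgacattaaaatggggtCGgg
The Pdia6 window held 32 CpG dinucleotides and 70.4% G + C, and the Xbp1 window 8 and 50.4%. Over the 9 members the count of CpG had a median of 20, beside a median of 6 over 32841 windows of the genome. The median G + C content was 64.0% for the members and 52.4% for all windows. Promoter composition is a description of these windows, and its relation to the levels was not tested.

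All 10 genes were well above the floor of 1 FPKM (fragments per kilobase of transcript, scaled to the number of mapped reads, a level per length) in every library. By median FPKM over the 66 libraries, Calr (185) was highest, followed by Hsp90b1 (158), Hspa5 (128), Atf4 (78.4), Pdia6 (50.4), Xbp1 (48.7), Pdia4 (19.2), Manf (18.3), Creld2 (13.1) and Sdf2l1 (8.87). Most neighbours in this order kept it library by library, Calr being above Hsp90b1 in 62 of 66 libraries and Xbp1 above Pdia4 in 66 of 66. Pdia6 and Xbp1 could not be ordered, as Pdia6 was the higher in 30 of 66 libraries, and Pdia4 was above Manf in 49 of 66.

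A pair of facts about the libraries bear on these genes. The first is a set of 13 of the 66 libraries that stood apart from their own replicates along the main axis of within-group differences, which held 43.6% of that variance over 9584 genes. Of these set-apart libraries 1 was at ZT7, 2 at ZT15, 6 at ZT19 and 4 at ZT23, so that 12 were in the dark, and across genes the size of the shift correlated with transcript GC content (Spearman −0.653, 8882 genes, which are not independent). In the 10 groups holding both kinds, Hsp90b1 was higher in the set-apart libraries by 0.65 on the log2 scale and Calr by 0.53, each in 9 of 10 groups. Sdf2l1 was lower in them by 1.40 and Creld2 by 0.84, each in 10 of 10 groups. For Hspa5, Pdia4, Pdia6, Manf and Xbp1 the difference lay between −0.07 and 0.12, and for Atf4 it was −0.22. The part of these libraries in each result was followed by leaving them out.

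**Figure D1:**
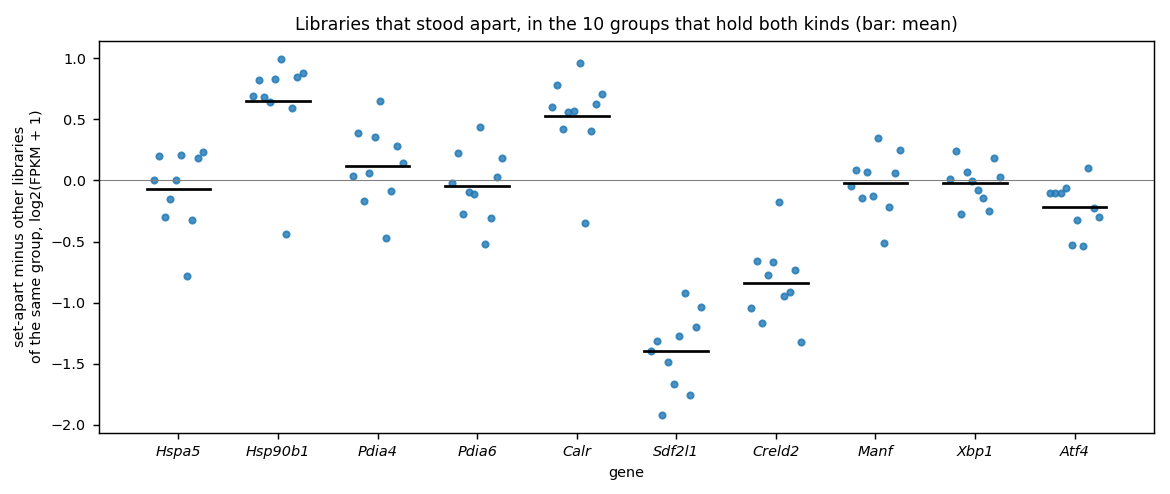
log2 difference between set-apart and other libraries of the same group for each of the 10 genes (vertical axis, log2 of FPKM + 1), over the 10 groups that hold both kinds. Hsp90b1 and Calr lie above 0 in 9 of 10 groups, Sdf2l1 and Creld2 below 0 in 10 of 10, and the means of the other genes between −0.22 and 0.12.

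The second is replicate 1 of the iMSN-D2RKO saline group at ZT7, whose total of 690048 FPKM was the highest of all (median 396432, lowest 364078) and whose estimated relative depth was 0.371. It gave the highest level of Calr (549 FPKM), Creld2 (29.1) and Atf4 (142) of the 66 libraries, against 184 and 206, 14.0 and 16.1, and 83.4 and 84.9 in the other replicates of its group. Drd2, the targeted gene, ran from 99.1 to 304 FPKM in WT (median 129) and from 78.0 to 375 in iMSN-D2RKO libraries (median 112). The 375 is this same library of highest total FPKM, and the 304 is a set-apart library, replicate 3 of WT cocaine at ZT19. Replicate 3 of WT cocaine at ZT15, which is not set apart, had the lowest total FPKM and the lowest relative depth (0.346), and read 240 FPKM for Drd2. Since a value for the whole gene does not tell which exons were read, Drd2 does not check the deletion. Markers of spiny neurons, oligodendrocytes, astrocytes, microglia, endothelium and cortical pyramidal neurons were detected throughout. The summed level of choroid plexus markers ran from 5.55 to 1153 FPKM with a median of 111 at ZT3 and 10.9 over all libraries, and their part in the levels of the 10 genes was not tested. In a bulk sample, fewer cells of a type and less mRNA per cell cannot be told apart.

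The most regular feature of the ER chaperones was a low level at ZT11, the last time point before darkness. Hspa5, whose product is the main Hsp70 chaperone of the ER and holds the stress sensors inactive, ranged from 70.0 to 101 FPKM in the 12 libraries of ZT11 (median 84.6) and from 79.9 to 245 in the 54 others (median 139). Of those 54 libraries 2 were below the ZT11 median. Its 3 replicates at ZT11 read 101, 82.0 and 87.1 FPKM in WT saline, 75.6, 80.9 and 76.6 in WT cocaine, 98.3, 89.4 and 87.3 in iMSN-D2RKO saline, and 89.2, 78.6 and 70.0 in iMSN-D2RKO cocaine. All 12 libraries of this time point thus lay between 70.0 and 101 FPKM. In WT mice the 3 cocaine libraries were all below the 3 saline ones, while in iMSN-D2RKO mice the treatments overlapped. In neither genotype did limma call the difference between cocaine and saline at ZT11.

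At ZT15, 4 h later, Hspa5 read 138, 133 and 119 FPKM in WT saline and 156, 104 and 111 in WT cocaine. In iMSN-D2RKO mice it read 178, 152 and 189 after saline and 219, 179 and 199 after cocaine. In each of the 4 series the 3 libraries of ZT15 were all above the 3 of ZT11.

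The same low point was seen in the other folding genes. Hsp90b1 (Grp94), the Hsp90 of the ER, had a median of 98.6 FPKM at ZT11 and 169 elsewhere, with 1 of the 54 other libraries below the ZT11 median. Calr, a calcium-binding chaperone for glycoproteins, had 126 against 196 FPKM, again with 1 of 54 below. The disulfide isomerases Pdia6 (37.3 against 52.6 FPKM, 3 of 54 below) and Pdia4 (14.2 against 20.2, 5 of 54 below), which form and reshuffle disulfide bonds, had the same order. Manf, a small ER protein that is also secreted and supports neurons, had 14.1 against 19.3 FPKM with 2 of 54 below. Xbp1 had 41.2 against 51.4 FPKM with 1 of 54 below. Sdf2l1 (7.38 against 10.02), a partner of the BiP cycle, had 14 of 54 libraries below the ZT11 median. Creld2 (11.5 against 13.6), an ER protein with disulfide isomerase activity, had 17 of 54, and Atf4 (70.8 against 81.8) had 11 of 54. As the set-apart libraries, none of them at ZT11, are low in Sdf2l1 and Creld2, the 53 other libraries were also read alone: there the Sdf2l1 medians were 12.8, 9.67, 7.38, 13.5, 14.0 and 11.5 FPKM from ZT3 to ZT23, and those of Creld2 13.7, 13.2, 11.5, 14.4, 17.1 and 14.7, both lowest at ZT11. Hsp90b1 and Calr are high in the set-apart libraries, which widens their contrast above. In the 53 others the Hsp90b1 medians were 123, 153, 98.6, 129, 184 and 168 FPKM from ZT3 to ZT23. Those of Calr were 172, 170, 126, 172, 217 and 188, and both genes were again lowest at ZT11.

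Markers of other cells also differed at ZT11. The summed level of 8 endothelial markers ran from 84.2 to 117 FPKM at ZT11 (median 96.0) and had a median of 120 in the other libraries, with 2 of 54 below the ZT11 median. The median sums of 8 microglial (252 against 281 FPKM), 8 astrocyte (695 against 743), 8 oligodendrocyte (2901 against 3307) and 11 spiny neuron markers (4265 against 4744) were lower at ZT11 as well, with 9, 13, 18 and 19 of the 54 other libraries below the ZT11 median. Gene by gene, 8 microglial and 7 astrocyte markers were lower at ZT11. Only 3 oligodendrocyte and 6 spiny neuron markers were lower, while 5 of each list were higher. All 8 choroid plexus markers were higher at ZT11, though the median of their sum was 10.2 FPKM there and 11.2 elsewhere. The sum of 7 cortical pyramidal markers went the other way, with a median of 197 FPKM at ZT11 (30.9 to 290), 77.4 at ZT15 (8.17 to 176) and 120 in the libraries outside ZT11, and all 7 were higher at ZT11 by their medians. The part of the cell makeup of the punches in the low level of the ER genes was not tested.

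By means of log2(FPKM + 1), the lowest of the 6 group means fell at ZT11 for 3 of the 10 genes in WT saline, where 5 were lowest at ZT7, for 7 in WT cocaine and for 8 in each iMSN-D2RKO series. By means of FPKM the numbers at ZT11 were 5, 7, 9 and 9, with 3 at ZT7 in WT saline, where Hspa5 and Pdia4 had nearly equal means at ZT7 and ZT11. Over 14643 genes with at least 1 FPKM in a library, the share lowest at ZT11 on the log2 scale was 13.4% in WT saline, 9.77% in WT cocaine, 13.6% in iMSN-D2RKO saline and 16.6% in iMSN-D2RKO cocaine. Hspa5, Hsp90b1, Pdia4, Pdia6, Calr, Manf and Xbp1 were lowest there in at least 3 of the 4 series, as were 5.1% of all genes, and Hsp90b1 and Calr in all 4, as were 1.2%. By means of FPKM the same 7 genes were lowest there in at least 3 series (5.37% of all genes), and Hspa5, Hsp90b1, Pdia4 and Calr in all 4 (1.3%). Both series of a genotype share their ZT3 libraries. The highest mean was at ZT19 for 8 genes in WT cocaine, where 41.0% of all genes were highest, at ZT15 for 7 genes in iMSN-D2RKO cocaine, where 17.0% were, and at ZT3 for 5 genes in WT saline, where 11.5% were.

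**Figure D2:**
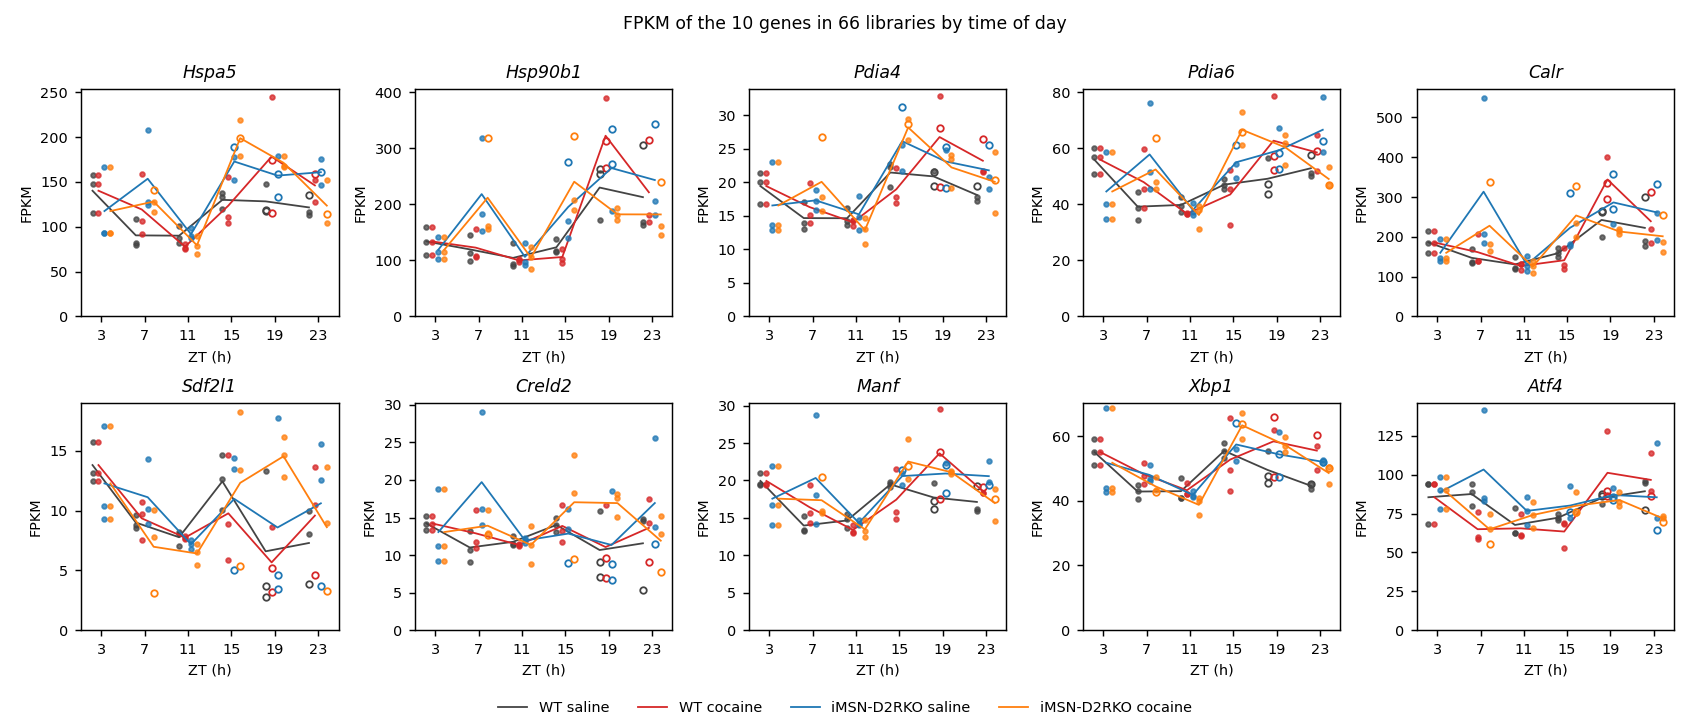
FPKM of each gene in every library (vertical axes) against zeitgeber time in hours (horizontal axes), coloured by genotype and treatment, with open circles for the 13 set-apart libraries. At ZT11 the points draw together at a low level for Hspa5 (70.0 to 101 FPKM), Hsp90b1, Calr and Xbp1 (35.5 to 47.1 FPKM), and the open circles lie high for Hsp90b1 and Calr and low for Sdf2l1 and Creld2.

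The rise from ZT11 to ZT15 was tested for each series as a contrast of group means in limma, on log2(FPKM + 1), in one fit of all 66 libraries with Benjamini-Hochberg adjustment over 14643 genes. These steps between neighbouring time points were added after the values had been seen. In iMSN-D2RKO cocaine the step was called, at an adjusted p under 0.05, for 6 of the 10 genes, against 0.56% of all genes in either direction and 0.328% upward. Hspa5 rose by 1.32 ± 0.21 on the log2 scale (SE, limma adjusted p = 0.00128), Pdia4 by 1.08 ± 0.18 (0.00196), Xbp1 by 0.70 ± 0.13 (0.00486), Pdia6 by 0.87 ± 0.17 (0.00954), Manf by 0.70 ± 0.16 (0.0226) and Hsp90b1 by 1.17 ± 0.29 (0.0432). Calr, with a difference of 0.99 ± 0.28 and a limma adjusted p of 0.0843, was not called, nor were Sdf2l1, Creld2 and Atf4.

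Behind these differences, Xbp1 read 40.1, 40.7 and 35.5 FPKM at ZT11 in iMSN-D2RKO cocaine and 67.1, 59.3 and 63.7 at ZT15. Pdia4 read 14.7, 13.1 and 10.8 at ZT11 and 29.4, 26.4 and 28.7 at ZT15. Neither gene's replicates overlapped. Replicate 3 of ZT15 is a set-apart library, and in it Hsp90b1 read 322 FPKM beside 208 and 191. Without the set-apart libraries the 6 genes were all still called, with differences of 1.32 for Hspa5 and 0.94 for Hsp90b1. Markers of the cell makeup differed between the same 6 libraries. The cortical pyramidal sum read 204, 267 and 143 FPKM at ZT11 and 42.5, 51.0 and 8.17 at ZT15, while the spiny neuron sum read 4753, 4098 and 3844 and then 6860, 5635 and 5772. The endothelial sum read 85.7, 96.1 and 96.0 and then 123, 99.4 and 139. None of these 3 sums overlapped between the time points, and their part in the step was not tested. Hspa5 and Pdia4 were called in 6 of 6 fits that each left out 1 library of the 2 time points, Xbp1 in 5, Pdia6 in 3, Manf in 1 and Hsp90b1 in 0.

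In the other series the Hspa5 step was smaller. It differed between ZT15 and ZT11 by 0.90 ± 0.21 in iMSN-D2RKO saline (limma adjusted p = 0.163), by 0.64 ± 0.21 in WT cocaine (0.402) and by 0.53 ± 0.21 in WT saline, where the adjusted p was 1. No gene at all was called for this step in WT saline or iMSN-D2RKO saline, and 2 genes in WT cocaine. Whether the step differs between the series was not tested.

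The other called steps were at other times. In WT cocaine, 6 members rose from ZT15 to ZT19, where 39.5% of all genes changed and 23% rose, and 2 of the 3 libraries at ZT19 are set apart. Hsp90b1 rose by 1.59 ± 0.29 (limma adjusted p = 0.000148) from 121, 94.6 and 102 FPKM to 264, 390 and 312. Calr rose by 1.29 ± 0.28 (0.00058), Atf4 by 0.65 ± 0.18 (0.00391), Pdia6 by 0.52 (0.0156), Manf by 0.41 (0.0380) and Pdia4 by 0.45 (0.0466). The one ZT19 library that is not set apart, replicate 2, was the highest of the 3 for 9 of these 10 genes: it read 245 FPKM for Hspa5 and 390 for Hsp90b1, their highest values in the series. Without it the Pdia4, Pdia6 and Manf steps were 0.30, 0.35 and 0.24 and were not called. Without replicate 3 of ZT15, the library of lowest total FPKM, 3 of the 6 steps were called. In iMSN-D2RKO saline, Calr fell by 1.09 from ZT7 to ZT11 (0.0273) and Hsp90b1 by 0.98 (0.0492), where 3.2% of all genes changed and 2.61% fell. Both calls ended without replicate 1 of ZT7, the library of highest total FPKM, which left falls of 0.59 and 0.67. WT saline had no called step among the members by limma, with 0.132% of all gene and step pairs called.

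**Figure D3:**
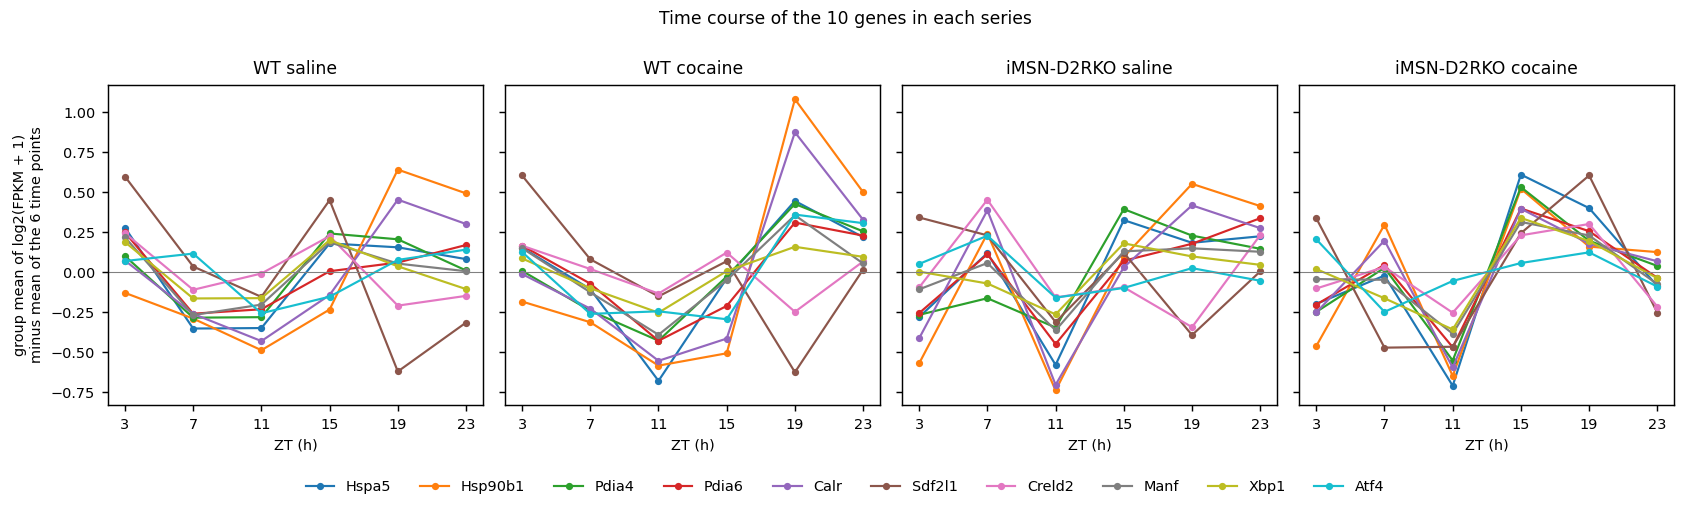
Mean level of each gene at the 6 time points in the 4 series (vertical axis, log2 of FPKM + 1 minus the mean of the 6 time points; horizontal axis, zeitgeber time in hours). The profiles of Hspa5, Hsp90b1, Pdia4, Pdia6, Calr, Manf and Xbp1 dip at ZT11 in at least 3 of the 4 series, and those of Sdf2l1 and Creld2 diverge from them at ZT19 except in iMSN-D2RKO cocaine, the one series with no set-apart library at that time.

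Rhythms were tested with JTK_CYCLE, a rank test for cycles of fixed period, at periods of 20 and 24 h and a corrected p under 0.01. In WT saline 5 of the 10 genes were called by this exact test, against 9.81% of 13940 genes tested: Calr (JTK_CYCLE corrected p = 3.37e-04), Pdia4 (0.00115), Hsp90b1 (0.00173), Atf4 (0.00253) and Pdia6 (0.00755). Manf (0.0108), Xbp1 (0.0154) and Hspa5 (0.0410) missed the threshold, and Sdf2l1 and Creld2 were at 1. In WT cocaine 4 of 10 were called, against 7.61% of genes: Manf (0.00115), Hsp90b1 (0.00173), Calr (0.00223) and Pdia4 (0.00507). By this exact test Atf4 and Pdia6 were called after saline and missed after cocaine (JTK_CYCLE corrected p = 0.0154 and 0.0199), Manf was the reverse, and the difference between the series was not tested by this method. In iMSN-D2RKO mice JTK_CYCLE called 0 of 10 after saline, against 2.58% of genes, and 0 of 10 after cocaine, against 1.1%. The lowest corrected p was 0.0809, for Pdia4, after saline and 0.0623, for Atf4, after cocaine. At a JTK_CYCLE corrected p under 0.05 there were also 0 of 10 in both, beside 1602 of 14135 and 580 of 13944 genes. Before correction over periods and phases, 5 and 7 of the 10 genes had a p under 0.05. That p is the smallest over 11 pairs of period and phase, and no share of all genes is given for it. A limma F test of a 24 h wave in the 18 libraries of each series also called 0 in both.

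Dark was compared with light in the limma fit of all 66 libraries. The mean of the 3 dark time points exceeded that of the 3 light ones at an adjusted p under 0.05 for 1 member in WT saline (2.75% of all genes changed and 2.01% were higher), 4 in WT cocaine (13.7% and 9.9%), 7 in iMSN-D2RKO saline (27.3% and 17.4%) and 4 in iMSN-D2RKO cocaine (0.942% and 0.615%). No member was called lower in the dark. The 7 calls of iMSN-D2RKO saline thus stand in a series where many genes changed, and the 4 of iMSN-D2RKO cocaine in one where few did.

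Hspa5 in iMSN-D2RKO cocaine ran from 70.0 to 167 FPKM in the 9 light libraries (median 92.8) and from 104 to 219 in the 9 dark ones (median 168). The ranges overlapped, and the difference of 0.62 ± 0.12 on the log2 scale was called (limma adjusted p = 0.00652). In iMSN-D2RKO saline Hspa5 was higher in the dark by 0.49 ± 0.12 (0.00838) and in WT cocaine by 0.42 ± 0.12 (0.0208), and in WT saline the difference was 0.28 ± 0.12 (0.135). Hspa5 was called in 18 of 18 fits that each left out 1 library in either iMSN-D2RKO series and in 15 of 18 in WT cocaine. In a fit of only the 18 libraries of a series, Hspa5 was called in iMSN-D2RKO cocaine (limma adjusted p = 0.0278) and WT saline (0.0346) and not in iMSN-D2RKO saline (0.110) or WT cocaine (0.0577), and in iMSN-D2RKO saline none of the 7 members was then called.

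Hsp90b1 was called in 3 series, with differences of 0.60 ± 0.17 in WT saline (limma adjusted p = 0.0429), 0.72 ± 0.17 in WT cocaine (0.00641) and 0.71 ± 0.17 in iMSN-D2RKO saline (0.00737), and read 0.54 ± 0.17 in iMSN-D2RKO cocaine (0.123). It is one of the genes raised in set-apart libraries. Without those libraries the differences were 0.37 in WT saline, 0.37 in iMSN-D2RKO saline and 0.72 in WT cocaine. At ZT19 each of these series then rests on the library that is not set apart. In WT cocaine that is replicate 2, whose Hsp90b1 level of 390 FPKM was the highest of all libraries. Calr was called in WT cocaine (0.53 ± 0.16, 0.0285) and iMSN-D2RKO saline (0.48 ± 0.16, 0.0270), and without the set-apart libraries the values were 0.53 and 0.24, the latter not called.

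Of the disulfide isomerases, Pdia4 was called in 3 series, at 0.44 ± 0.11 in WT cocaine (limma adjusted p = 0.00858), 0.51 ± 0.11 in iMSN-D2RKO saline (0.00341) and 0.51 ± 0.11 in iMSN-D2RKO cocaine (0.0109). Pdia4 ran from 12.9 to 23.01 FPKM in the light in iMSN-D2RKO saline (median 15.8) and from 18.9 to 31.1 in the dark (median 24.8). Pdia6 was called in both iMSN-D2RKO series, at 0.39 ± 0.10 after saline (0.00958) and 0.41 ± 0.10 after cocaine (0.0290). Manf was called in iMSN-D2RKO saline (0.27 ± 0.09, 0.0280).

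The transcription factors differed from each other. Xbp1 was higher in the dark by 0.22 ± 0.07 in iMSN-D2RKO saline (limma adjusted p = 0.0286) and 0.33 ± 0.07 in iMSN-D2RKO cocaine (0.0156), and read 0.18 ± 0.07 in WT cocaine (0.0891) and 0.09 ± 0.07 in WT saline (0.410). In iMSN-D2RKO cocaine its light values ran from 35.5 to 68.6 FPKM (median 42.9) and its dark ones from 45.2 to 67.1 (median 57.0), the highest light value being replicate 3 of ZT3. Atf4 was called in no series, with differences of 0.04, 0.25, −0.08 and 0.06 in WT saline, WT cocaine, iMSN-D2RKO saline and iMSN-D2RKO cocaine. Sdf2l1 and Creld2 were likewise called in none. Sdf2l1 read −0.32, −0.36, −0.18 and 0.40 in the same order.

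Without the 13 set-apart libraries the number of members higher in the dark was 0 in WT saline, 7 in WT cocaine, 0 in iMSN-D2RKO saline and 6 in iMSN-D2RKO cocaine, where Sdf2l1 was then called at 0.58 (limma adjusted p = 0.0192). The shares of all genes called without these libraries are not given here, for the members or for the lists below. These recounts therefore do not show whether the members moved more than all genes did. They also leave out 2 of the 3 libraries at ZT19 in WT saline, WT cocaine and iMSN-D2RKO saline. The library kept then stands alone for ZT19. In WT cocaine it is replicate 2, which was higher than the set-apart libraries of its group for most of the 10 genes. In iMSN-D2RKO saline the differences of Hspa5, Pdia4, Pdia6, Manf and Xbp1 were 0.53, 0.47, 0.44, 0.31 and 0.25 without them, beside 0.49, 0.51, 0.39, 0.27 and 0.22 with them, while the adjusted p rose to between 0.0700 and 0.219, with 4 fewer libraries in the series. The size of the dark and light difference was compared between genotypes and treatments directly, and limma called none of the 10 genes in any of the 4 comparisons, with 0 members at an unadjusted p under 0.05 in each and 0.00683% of all genes called between treatments in WT and 0% in the other comparisons. For Hspa5 the difference between genotypes was 0.21 ± 0.17 after saline and 0.20 ± 0.17 after cocaine.

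**Figure D4:**
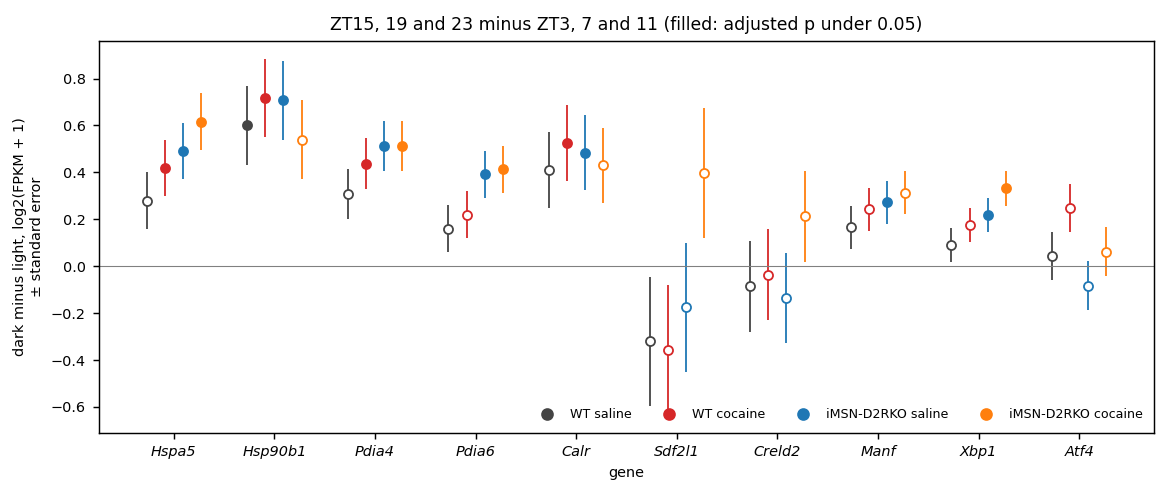
Dark minus light difference of each gene in the 4 series (log2 of FPKM + 1, with bars of 1 SE), filled where the limma adjusted p is under 0.05. Hspa5, Hsp90b1, Pdia4, Pdia6, Calr, Manf and Xbp1 lie above 0 in every series (0.09 to 0.72), and Sdf2l1 and Creld2 lie on both sides of it.

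Waves of 24 and 12 h were also fitted. A 24 h wave fitted to the 6 time point means, a test added after the values were seen, was called by limma for 1 member in WT saline (2.51% of all genes), 8 in WT cocaine (27.1%), 3 in iMSN-D2RKO saline (13.1%) and 0 in iMSN-D2RKO cocaine (0.157%), where 5 had an unadjusted p under 0.05. A 12 h wave was called for 0 members in each series (0.314%, 1.84%, 0% and 0% of all genes), with 4, 4, 2 and 5 of the 10 at an unadjusted p under 0.05. As a description, in iMSN-D2RKO cocaine the median share of the variance between time points at 12 h was 40.7% for the members and 17.0% for all genes, and that at 24 h was 37.0% and 16.4%. In WT saline Xbp1 was high at ZT3 (59.1, 51.1 and 55.0 FPKM), low at ZT7 and ZT11 (40.7 to 47.1), high at ZT15 (55.3, 57.9 and 53.2) and lower again at ZT23 (45.3, 43.6 and 45.1), and 84.5% of its variance between time points was at 12 h.

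Cocaine was compared with saline at each time point from ZT7 to ZT23. By limma none of the 10 genes was called at any of the 5 time points in WT mice, where 3 of 50 gene and time pairs had an unadjusted p under 0.05, or in iMSN-D2RKO mice, where 3 of 50 did. Over all genes and times 0.00683% and 0.00273% were called. The lowest adjusted p was that of Atf4 in iMSN-D2RKO mice at ZT7, 4 h after the injection, where it read 142, 83.4 and 84.9 FPKM after saline and 64.8, 55.2 and 74.6 after cocaine. The groups did not overlap, and the difference was −0.63 ± 0.18 (limma adjusted p = 0.102). In WT mice at ZT7, Atf4 read 80.0, 88.7 and 94.0 FPKM after saline and 58.6, 60.0 and 76.3 after cocaine, also without overlap, with a difference of −0.43 ± 0.18 and an adjusted p of 1. The highest saline value in iMSN-D2RKO mice is the library of highest total FPKM, without which the difference was −0.38 ± 0.18 (adjusted p = 0.787), and one of the cocaine values, 55.2, is a set-apart library.

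Hspa5 at ZT7 read 82.4, 79.9 and 109 FPKM in WT saline and 107, 159 and 91.7 in WT cocaine, a difference of 0.37 ± 0.21. In iMSN-D2RKO mice it read 209, 124 and 128 after saline and 116, 141 and 127 after cocaine, a difference of −0.22 ± 0.21, and these groups overlapped. At ZT19 Sdf2l1 read 4.58, 17.8 and 3.42 FPKM in iMSN-D2RKO saline and 14.7, 12.8 and 16.2 after cocaine (1.001 ± 0.48, limma adjusted p = 0.304), and the 2 low saline values are the set-apart libraries of that group. In the mean of ZT7 to ZT23, the differences ran from −0.07 to 0.15 in WT and from −0.19 to 0.01 in iMSN-D2RKO mice, with none called by limma and 1 member of 10 at an unadjusted p under 0.05 in each genotype. Over all genes 0.0137% and 0% were called. The difference in the effect of cocaine between genotypes was called by limma for none of the 10, with 0 of 10 at an unadjusted p under 0.05 in the mean and 5 of 50 by time point, where 0% and 0.00273% of all values were called.

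**Figure D5:**
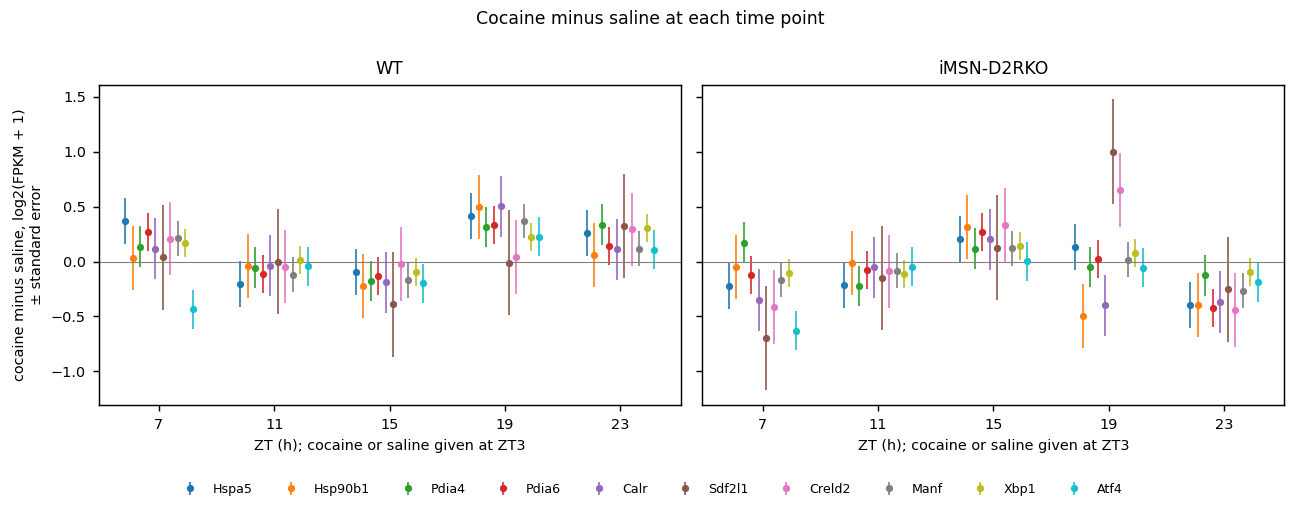
Cocaine minus saline difference of each gene at ZT7, ZT11, ZT15, ZT19 and ZT23 in WT and iMSN-D2RKO mice (log2 of FPKM + 1, with bars of 1 SE). No point passed the limma adjusted p of 0.05, Atf4 lies lowest among the WT values at ZT7 (−0.43), and Sdf2l1 has the widest bars.

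Between genotypes, none of the 10 genes was called at ZT3 (0.041% of all genes), where 1 had an unadjusted p under 0.05. After saline, in the mean of ZT7 to ZT23, the iMSN-D2RKO minus WT differences of the 10 ran from 0.09 to 0.37 (median 0.22, against 0.01 over all genes). By limma 0 were called, beside 0.212% of all genes. At an unadjusted p under 0.05 there were 6, for which no share of all genes is given here. Hspa5 had the lowest adjusted p, with 0.37 ± 0.09 (0.0827), followed by Pdia6 with 0.25 ± 0.08 (0.157). Without the library of highest total FPKM, which is in this saline series at ZT7, the differences ran from 0.04 to 0.32, with 0.32 ± 0.09 for Hspa5 (limma adjusted p = 0.157). The number of set-apart libraries was 4 in iMSN-D2RKO saline and 3 in WT saline. After cocaine the differences ran from −0.04 to 0.17, with 0 called by limma, 0 at an unadjusted p under 0.05 and 0.109% of all genes called.

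Over the 22 group means of log2(FPKM + 1), the Pearson correlation was 0.98 between Hsp90b1 and Calr and 0.97 between Hspa5 and Manf, and within groups it was 0.94 and 0.87. Sdf2l1 and Creld2 paired with each other (0.73 over group means and 0.87 within groups), and within groups Sdf2l1 ran against Hsp90b1 (−0.52). Some group means hold set-apart libraries, and the values are descriptions. Hspa5 replicates of one group differed with an SD of 0.26 on the log2 scale and Xbp1 replicates with 0.15, beside a median of 0.28 over 9584 genes. Sdf2l1 had the widest spread, 0.60. The genes whose group means were most like those of Hspa5, among 9584 with a mean of at least 5 FPKM, were Ncoa5 (0.917), Tra2a (0.901), P4ha1 (0.899), Ahsa2 (0.895) and Hexim1 (0.895). P4ha1, a proline hydroxylase of the ER (0.870), Tra2a (0.857), Ncoa5 (0.852) and Ahsa2 (0.845) were also among the 5 most like Xbp1, after the joined row of Mrps6 and Slc5a3 (0.871).

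Further genes of the pathway were read from lists of known genes. Of 25 other ER folding genes, 0 were called higher in the dark in WT saline, 3 in WT cocaine, 8 in iMSN-D2RKO saline, where 1 was lower, and 0 in iMSN-D2RKO cocaine. Over all genes 2.01%, 9.9%, 17.4% and 0.615% were called higher in the same order. Pdia3, the partner of calreticulin in glycoprotein folding, was higher by 0.35 ± 0.10 in WT cocaine (limma adjusted p = 0.0172) and 0.31 ± 0.10 in iMSN-D2RKO saline (0.0223). Dnajc3, a cochaperone of BiP, was higher by 0.53 ± 0.17 (0.0365) and 0.60 ± 0.17 (0.0154) in the same series. Canx, the membrane-bound relative of Calr, was higher by 0.45 ± 0.12 in iMSN-D2RKO saline (0.0109). The median differences of the list were 0.07, 0.09, 0.20 and 0.11 in WT saline, WT cocaine, iMSN-D2RKO saline and iMSN-D2RKO cocaine, beside 0.05, 0.06, 0.03 and 0.02 over all genes. Without the set-apart libraries 0, 5, 0 and 2 genes of the list were called higher and 0 lower, so that the calls of Pdia3, Dnajc3 and Canx in iMSN-D2RKO saline were lost.

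Of 9 stress sensors and their proteases only Creb3l1 was called between dark and light, in WT cocaine (0.42 ± 0.11, limma adjusted p = 0.0110). In the same comparison Atf6 read 0.33 in WT saline (0.166) and Ern1, which encodes IRE1, 0.19 in iMSN-D2RKO saline (0.201). After saline, 1 of the 9 was called higher in iMSN-D2RKO than in WT mice by limma, beside 0.212% of all genes called. JTK_CYCLE called 1 of the 9 in WT cocaine and 1 in iMSN-D2RKO saline, beside 7.61% and 2.58% of all genes. Of 14 genes of ER-associated degradation, 3 were higher and 1 lower in the dark in iMSN-D2RKO saline, among them Edem3 (0.55 ± 0.17, 0.0213), and none was called in the other series. Of 14 genes of ER entry and translocation, Sec61a1, a subunit of the translocon, was lower in the dark in WT saline (−0.23 ± 0.05, 0.0223), and 1 higher and 3 lower, 4 higher and 2 lower, and 0 genes were called in WT cocaine, iMSN-D2RKO saline and iMSN-D2RKO cocaine. Of 21 targets of ATF4 and CHOP, 1 was higher in WT saline, 1 higher and 1 lower in WT cocaine, 2 higher and 3 lower in iMSN-D2RKO saline, and 0 were called in iMSN-D2RKO cocaine. Ddit4, an inhibitor of mTORC1 signalling, was lower by 1.01 ± 0.32 in WT cocaine (0.0346). Over all genes 2.75%, 13.7% and 0.942% were called in either direction in WT saline, WT cocaine and iMSN-D2RKO cocaine. The 4 of 14 degradation genes, 6 of 14 entry genes and 5 of 21 targets called in iMSN-D2RKO saline stand beside the 27.3% of all genes called there. Without the set-apart libraries these 3 lists had 0 calls in WT saline and in iMSN-D2RKO saline, the calls of Sec61a1 and Edem3 included.

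Of 20 heat shock chaperones of the cytosol and mitochondria, 4, 10, 11 and 5 were called higher in the dark in WT saline, WT cocaine, iMSN-D2RKO saline and iMSN-D2RKO cocaine, and 0 were lower. Over all genes 2.01%, 9.9%, 17.4% and 0.615% were called higher. The median differences of the heat shock list were 0.25, 0.30, 0.35 and 0.37. Chordc1, an Hsp90 cochaperone, was called in each series, at 0.55 ± 0.15 (limma adjusted p = 0.0397), 0.66 ± 0.15 (0.00579), 0.89 ± 0.15 (8.45e-04) and 0.60 ± 0.15 (0.0385). Hsph1, an Hsp70 exchange factor, was higher by 0.53 ± 0.10 in iMSN-D2RKO cocaine (0.00625), and Hspd1, the chaperonin of mitochondria, by 0.26 ± 0.07 (0.0323). JTK_CYCLE called 11 of these 20 genes in each WT series, 0 in iMSN-D2RKO saline and 2 in iMSN-D2RKO cocaine, and for the other ER folding genes 4 of 24, 3 of 24, 0 of 25 and 1 of 25. Over all genes tested it called 9.81%, 7.61%, 2.58% and 1.1% in WT saline, WT cocaine, iMSN-D2RKO saline and iMSN-D2RKO cocaine. Without the set-apart libraries the heat shock genes called higher in the dark were 0, 12, 4 and 9.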

How the data were processed

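Poly(A) RNA from ventral striatum punches was sequenced by the authors as stranded single-end libraries, aligned to mm10 with TopHat and Bowtie2, and quantified with Cufflinks and Cuffnorm. The deposited FPKM per gene, in 72 columns for 66 libraries (the 6 ZT3 libraries appear in 2 columns each), are the values used. The normalization option of Cuffnorm is not given in the sources used here. Read numbers are unknown, so precision was taken from the 3 replicates. Nothing states that replicates are separate animals, and p-values then measure only the spread between these samples.

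JTK_CYCLE was run per series (periods 20 and 24 h, outliers by Dixon's test at 95% removed, corrected p under 0.01). limma 3.58.1 in R 4.3.3 was fitted to log2(FPKM + 1) with 22 group means and a mean-variance trend, for the 14643 genes that reached 1 FPKM in any library, and fold changes on this scale understate those of low genes. Both scripts were tested on simulated data. Counts at an unadjusted p stand without a share of all genes at that p, and the shares given are those called after adjustment or correction. Tables were made with Python 3.11.15. The text names all 10 genes and, per list, up to 5 genes of smallest p with a mean of at least 1 FPKM, and the 5 genes most like Hspa5 and Xbp1. Members and lists were chosen with earlier results of these data known. Positions are those of mm10. Alternatives were other pseudocounts, filters, scalings and thresholds, a replicate block, and leaving out time points or libraries.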

Additional observations from a re-analysis of the deposited data

How the results depend on the processing

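Counts are members called of 10, beside the reported value in brackets. They are of 60 for steps, and of 50 for cocaine by time point or its difference between genotypes by time point. Rhythms in WT saline (5) numbered 8 at a corrected p under 0.05, 3 with Benjamini-Hochberg adjustment, 8 without the set-apart libraries, 3 with median-of-ratios scaling, 1 without ZT11 and 2 without ZT23. In WT cocaine (4) they numbered 7 at a corrected p under 0.05, 0 with Benjamini-Hochberg adjustment, 7 with the library score removed, 2 without ZT7, 0 without ZT11, 2 without ZT23 and 7 by a limma F test. In iMSN-D2RKO saline (0) 2 were called without ZT7, and in iMSN-D2RKO cocaine (0) 2 without ZT11 and 1 without ZT15. All genes called rose there from 365 to 642 of 14135, and from 153 to 345 and 221 of 13944. In WT saline, 1367 of 13940 became 3304 at a corrected p under 0.05, 522 with Benjamini-Hochberg adjustment and 1317 with scaling. Without ZT11 or ZT23 they were 1198 and 1004. In WT cocaine, 1086 of 14268 became 2779 at a corrected p under 0.05, 164 with Benjamini-Hochberg adjustment and 997 with the score removed. Without ZT7, ZT11 or ZT23 they were 920, 735 and 586. Dark minus light calls in WT saline (1) were 0 with no filter, with scaling, with the library score in the fit and without the set-apart libraries, and 5 with only the groups compared. They were 7 in WT cocaine (4) without the set-apart libraries. In iMSN-D2RKO saline (7) they were 0 without the set-apart libraries, 4 with the score and 0 with only the groups compared, and in iMSN-D2RKO cocaine (4) 8 with the score and 1 with only the groups compared. With the score, Sdf2l1 in iMSN-D2RKO saline turned from −0.18 to 0.56, the one sign change among the tabulated results that came with a call. Steps in WT cocaine (6) were 3 with scaling and 10 without the set-apart libraries, and in iMSN-D2RKO saline (2) 1 with no filter, 1 with scaling, 13 with the score and 6 without the set-apart libraries. Cocaine at single times in WT (0) gave 1 without the set-apart libraries, and the genotype difference after saline (0) 3 with the score and 1 with only the groups compared. The 24 h wave in WT saline (1) fell to 0 with the score and without the set-apart libraries, in iMSN-D2RKO saline (3) to 1 with no filter and 0 under both, and rose in iMSN-D2RKO cocaine (0) to 3 with the score. The 12 h wave rose from 0 to 1 in WT saline with the score and to 4 in WT cocaine without the set-apart libraries. The cause of these changes was not tested, and for the limma counts no share of all genes is given here. Without the set-apart libraries, ZT19 rests on the library not set apart in WT saline, WT cocaine and iMSN-D2RKO saline.

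Leaving out 1 library or 1 replicate number gave ranges of 0 to 8 and 1 to 7 for rhythms in WT saline and WT cocaine. For dark minus light the ranges were 0 to 1, 0 to 6, 1 to 7 and 0 to 6 in WT saline, WT cocaine, iMSN-D2RKO saline and iMSN-D2RKO cocaine, and for steps 0 to 2, 2 to 8, 0 to 7 and 0 to 6. For 24 h waves they were 0 to 2, 0 to 8, 0 to 5 and 0 to 3. The range was 0 to 1 for the 12 h wave in iMSN-D2RKO saline and for the cocaine effect between genotypes by time, and 0 to 2 for cocaine by time in iMSN-D2RKO mice and for the genotype difference after saline. All other counts stayed at 0. Single libraries moved counts by over 1.5 times as follows. Rhythms in WT saline were 3 without replicate 2 of ZT3 or replicate 2 or 3 of ZT23 and 8 without replicate 1 or 2 of ZT19, and in WT cocaine 7 without replicate 2 of ZT7. Dark minus light in WT saline was 0 without any of 12 libraries (all but replicate 3 of ZT3, ZT7 and ZT19, replicate 1 of ZT11 and replicates 2 and 3 of ZT23). It was 2 in WT cocaine without replicate 2 of ZT3 or replicate 3 of ZT7 or ZT23, 4 in iMSN-D2RKO saline without replicate 2 of ZT15, 1 of ZT19 or 3 of ZT23, and 2 in iMSN-D2RKO cocaine without replicate 1 or 2 of ZT3 or 3 of ZT11. Steps were 2 in WT saline without replicate 3 of ZT19 and 3 in WT cocaine without replicate 3 of ZT15 or 2 of ZT19. In iMSN-D2RKO saline they were 0 without replicate 2 or 3 of ZT11 or 1 of ZT7, and 1, 5 and 7 without replicate 1 of ZT11, 3 of ZT7 and 2 of ZT7. In iMSN-D2RKO cocaine they were 2 without replicate 3 of ZT11 and 3 without replicate 1 or 3 of ZT15. The other moved counts were those of cocaine by time, genotype and waves, in the ranges above.

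Replicate numbers did not pair the samples: deviations of same-numbered libraries had a median correlation of −0.00269, with 7 of 30 above 0.1. A replicate block changed 2 counts, the steps in iMSN-D2RKO saline from 2 to 1 (Hsp90b1 lost) and in WT cocaine from 6 to 5 (Pdia4 lost). Read numbers are unknown, and the relative depth given above is only an estimate from rarely detected genes.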
